A study of Mus musculus with 14 samples.

Results

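The platelet-derived growth factor (PDGF) family in the mouse comprises the ligand genes Pdgfa, Pdgfb, Pdgfc and Pdgfd and the receptor genes Pdgfra and Pdgfrb. These 6 genes were taken by name from a table of 32289 genes measured by bulk RNA sequencing of the ascending aorta. All tissue came from C57BL/6 mice killed in week 6 of the experiment. The group labelled PBS held 3 libraries. BAPN, an inhibitor of lysyl oxidase that weakens collagen and elastin cross-linking and is used to produce thoracic aortic aneurysm in mice, was fed alone (BAPN, 4 libraries), with Cilengitide (BAPN+Cilengitide, 3 libraries) or with SB273005 (BAPN+SB273005, 4 libraries). Both added compounds are inhibitors of integrins that contain the αV chain, and neither was given without BAPN. The labels name no dose, age, sex or pooling and do not say that the libraries came from separate mice, so p-values measure the spread between these libraries, which may be technical.

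PDGF ligands are secreted dimers that bring together receptor tyrosine kinases on mesenchymal cells. In the vessel wall, PDGF-B made by endothelial cells, platelets and macrophages acts on PDGFRβ of pericytes and smooth muscle cells, where it drives migration, division and loss of the contractile state. PDGF-A signals mainly through PDGFRα, a receptor typical of fibroblasts. PDGF-C and PDGF-D are released as latent proteins whose CUB domain has to be cut off by proteases before they can bind PDGFRα and PDGFRβ, respectively.

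The ligand genes differ in exons that change the encoded protein, and 3 such exons are shown because the share of transcripts that hold them is reported below. Coordinates are on mm10, and the sequences were taken from the GENCODE vM21 transcripts, in the direction of transcription. The first exon encodes the basic C-terminal end of the long form of PDGF-A, which is known to hold the ligand at heparan sulphate near the cell surface. The second is an extra internal exon of Pdgfc that ends the reading frame early, and the transcripts that carry it are annotated as targets of nonsense-mediated decay. Capitals mark the stop codon in both. The third encodes part of the growth factor domain of PDGF-D, has no stop codon and is absent from a shorter Pdgfd transcript. Its length is not a multiple of the codon length, so leaving it out shifts the reading frame.
Pdgfa long-form exon, chr5:138978622-138978690, minus strand, 69 bases: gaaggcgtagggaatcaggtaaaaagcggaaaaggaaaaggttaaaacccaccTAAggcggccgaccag
Pdgfc extra exon, chr3:81131018-81131076, plus strand, 59 bases: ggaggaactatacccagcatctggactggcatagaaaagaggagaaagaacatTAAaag
Pdgfd exon absent from the shorter form, chr9:6359703-6359917, plus strand, 215 bases: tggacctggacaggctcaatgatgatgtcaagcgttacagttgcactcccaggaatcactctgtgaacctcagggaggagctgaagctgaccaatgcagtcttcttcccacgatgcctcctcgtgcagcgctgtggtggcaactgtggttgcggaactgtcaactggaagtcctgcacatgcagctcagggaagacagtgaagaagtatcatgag

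Estimated counts summed to between 49027885 and 72584877 per library, and the 6 genes had 1003 to 53793 each, so sampling error was small beside the spread between libraries. The libraries fell into sets that largely followed the groups. H2-Ea had 0 counts in PBS 1 to 3 and BAPN+SB273005 1 to 3 and 83 to 130 in the other 8, and Umod, a kidney gene, lay at 7.73 to 11.6 FPKM in the first set and at 19.8 to 25.8 FPKM in the second. BAPN and BAPN+Cilengitide lay wholly in the second set and PBS in the first, so in those comparisons set and diet cannot be told apart, except through BAPN+SB273005 4. Where BAPN+SB273005 is compared with BAPN or BAPN+Cilengitide, set and inhibitor can be told apart only through that same library. Smooth muscle markers (10 of 10 measured) summed to 7052 to 10813 FPKM in PBS and BAPN and to 6134 to 8134 FPKM in BAPN+Cilengitide. In BAPN+SB273005 they summed to 4636, 1199, 5709 and 7078 FPKM, with replicate 2 far below the rest. In whole tissue, fewer cells of a type and less RNA per cell cannot be told apart.

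Levels of different genes were compared on transcript FPKM (fragments per kilobase, scaled to the size of the library), summed over the transcripts of a gene. In PBS aorta Pdgfrb stood highest at 84.2 ± 8.76 (SD, n = 3). Pdgfa had 31.8 ± 2.02 and Pdgfd 29.6 ± 4.10, and the ranges of these ligands overlapped. Pdgfra followed at 16.9 ± 3.88, Pdgfc at 9.59 ± 0.357 and Pdgfb at 5.88 ± 1.09, and none of these 3 overlapped its neighbours. Pdgfrb kept the first place and Pdgfb the last in all 4 groups by the group mean. In BAPN+Cilengitide the mean of Pdgfc (27.7 ± 9.49) lay above that of Pdgfra (20.1 ± 1.65, n = 3 for both), with overlapping ranges, whereas in the other groups Pdgfra lay above Pdgfc. All values given from here are gene FPKM unless transcripts are named. The gene table spreads a gene's reads over the joint length of all its exons, which makes gene FPKM lower than the transcript sum by a factor of 1.01 for Pdgfrb and up to 1.86 for Pdgfa.

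**Figure D1:**
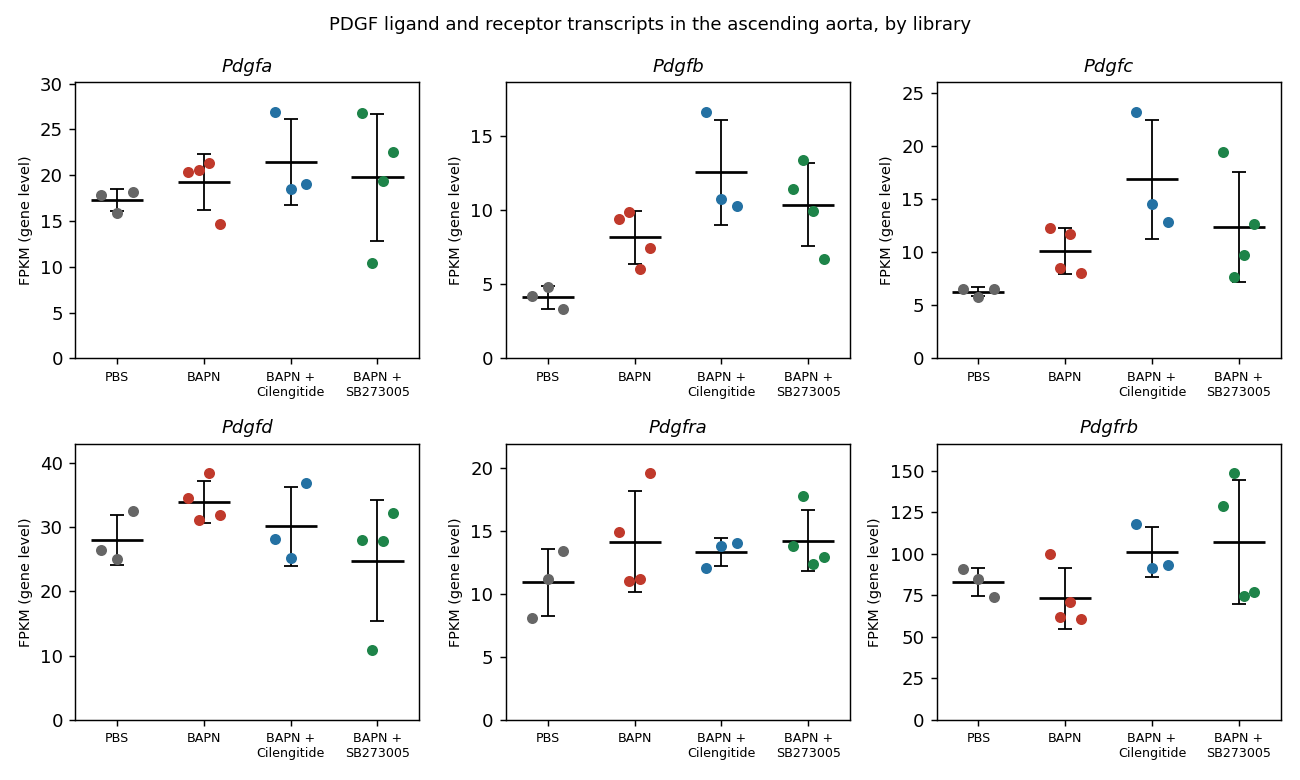
Gene FPKM of the 6 PDGF genes in each of the 14 libraries (points in replicate order; bars, group mean ± SD; vertical axes start at 0 and differ between panels). For Pdgfb and Pdgfc all 11 libraries from BAPN-fed mice lie above the 3 PBS libraries, whereas the groups of Pdgfd and Pdgfra overlap.

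Pdgfb and Pdgfc were the members that were higher in the groups fed BAPN with an integrin inhibitor than in PBS. Pdgfb was 3.12-fold higher in BAPN+Cilengitide and 2.62-fold higher in BAPN+SB273005. Pdgfc was 2.75-fold and 2.04-fold higher as a gene, and its forms were not tested apart. Its forms with the 59-base exon, annotated as decay targets, had a mean transcript FPKM of 2.46 in PBS. They had 16.8 in BAPN+Cilengitide and 7.06 in BAPN+SB273005. The remaining form had 7.13, 10.9 and 12.2 in the same order and overlapped PBS in BAPN+Cilengitide. This split is an estimate, described below. With BAPN alone the gene values of Pdgfb and Pdgfc stood above every PBS library, but the differences did not pass the adjusted threshold. Pdgfa, Pdgfd and both receptors passed in none of the comparisons.

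Pdgfb (ENSMUSG00000000489, chr15:79995874-80014977, minus strand) encodes the PDGF-B chain, the main ligand of PDGFRβ. It had 4.22, 4.81 and 3.31 FPKM in PBS and 9.38, 9.86, 6.00 and 7.43 in BAPN. In BAPN+Cilengitide it had 16.6, 10.8 and 10.3, and in BAPN+SB273005 11.4, 13.4, 9.92 and 6.71. Every library from BAPN-fed mice lay above the highest PBS library, and the BAPN+Cilengitide libraries also lay above all 4 BAPN libraries. The log2 difference from PBS was 0.99 ± 0.26 (SE) in BAPN, with an edgeR adjusted p = 0.110 and all 4 libraries higher. DESeq2 called this difference (0.98 ± 0.27, adjusted p = 0.0112), and over all 10 alternative settings the adjusted p ran from 0.0112 to 0.446. It was 1.64 ± 0.28 in BAPN+Cilengitide (edgeR adjusted p = 0.00747, higher in 3 of 3 libraries) and 1.39 ± 0.26 in BAPN+SB273005 (edgeR adjusted p = 0.00679, higher in 4 of 4). Both calls were made in each of the 14 fits that left out 1 library. Adding the library set to the model left the BAPN+Cilengitide difference to rest on BAPN+SB273005 4, at 2.44 ± 0.44 with an edgeR adjusted p = 0.101 (1.16e-06 to 0.0132 over the other alternative settings). Within the first set alone, BAPN+SB273005 1 to 3 lay 1.57 ± 0.21 above PBS (edgeR adjusted p = 0.0255).

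Macrophage markers, like Pdgfb, were higher in the BAPN-fed groups than in PBS. Within a group the libraries ranked alike in some groups and not in others. In BAPN+Cilengitide the order was the same, with Pdgfb at 16.6, 10.8 and 10.3 FPKM and macrophage sums of 1043, 794 and 524 FPKM. In BAPN+SB273005 replicate 2 was highest and replicate 1 next in both, while replicates 3 and 4 changed places. In the BAPN group, BAPN 2 had the highest Pdgfb (9.86 FPKM) and the lowest macrophage sum (335 FPKM). PBS 2 likewise had the highest Pdgfb (4.81 FPKM) and the lowest macrophage sum (161 FPKM) of its group. The 10 macrophage markers, all tested, summed to 161 to 307 FPKM in PBS, 335 to 801 in BAPN, 524 to 1043 in BAPN+Cilengitide and 535 to 1132 in BAPN+SB273005, with 2, 8 and 9 of 10 higher than PBS by edgeR and none lower. The background for this and the later marker counts is the 0.233% of all tested genes that passed in BAPN in either direction. In BAPN+Cilengitide 3.98% and in BAPN+SB273005 7.82% passed as higher. Of the 10 platelet markers 2 were expressed enough to be tested and 1, Pf4, passed, as higher in all 3 BAPN-fed groups. The other tested marker did not pass, with log2 differences from PBS of 0.70, -1.72 and 0.96 in BAPN, BAPN+Cilengitide and BAPN+SB273005. The platelet markers summed to 8.71 to 9.80 FPKM in PBS and 16.8 to 28.1 in the BAPN-fed groups. Most of this was Pf4, which macrophages can also express (6.69 to 8.13 FPKM in PBS and 13.6 to 26.5 in the BAPN-fed libraries). Gp9, Itga2b and Ppbp, expressed too little to be tested, stayed at or below 0.718, 1.20 and 2.21 FPKM in every library. Endothelial markers (10 of 10 tested) summed to 102 to 120 FPKM in PBS, 90.4 to 151 in BAPN and 82.8 to 143 in BAPN+Cilengitide, with none passing. In BAPN+SB273005 they summed to 144, 208, 129 and 99.6 FPKM, above every PBS library in replicates 1 to 3, with 8 of 10 higher on the log2 scale (median 0.68). There 1 passed, Cdh5, the endothelial cadherin, named after its values were seen (1.53, edgeR adjusted p = 0.0441). Pecam1, an endothelial marker named in the same way, went the other way in that group (-0.36, edgeR adjusted p = 0.207). The part of any of these cell types in the Pdgfb result was not tested.

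Pdgfc (ENSMUSG00000028019, chr3:81036416-81214040, plus strand) encodes a ligand of PDGFRα made by fibroblasts and smooth muscle cells. Its PBS values were close together at 6.50, 5.82 and 6.56 FPKM. BAPN had 12.2, 8.49, 11.7 and 8.03, BAPN+Cilengitide 23.2, 14.5 and 12.8, and BAPN+SB273005 19.4, 7.63, 9.77 and 12.6. No BAPN-fed library reached down to the PBS range, and BAPN+Cilengitide lay wholly above BAPN, whereas BAPN+SB273005 overlapped both. The log2 difference from PBS was 0.69 ± 0.28 in BAPN (edgeR adjusted p = 0.346, 4 of 4 libraries higher), 1.46 ± 0.31 in BAPN+Cilengitide (edgeR adjusted p = 0.0183, 3 of 3) and 1.03 ± 0.29 in BAPN+SB273005 (edgeR adjusted p = 0.0353, 4 of 4).

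These Pdgfc calls rest on few libraries. The BAPN+Cilengitide call was lost without PBS 1, 2 or 3 or without BAPN+Cilengitide 1 (edgeR adjusted p = 0.0517 to 0.0785), and the BAPN+SB273005 call without PBS 1, 2 or 3, BAPN+Cilengitide 2 or BAPN+SB273005 1 (0.0503 to 0.114). The former had a difference of 1.41 ± 0.56 (edgeR adjusted p = 0.267) once the set was added to the model, and the latter was also lost in 6 of 11 alternative settings, with adjusted p values of 0.00549 to 0.193. Fibroblast markers (10 of 10 tested) summed to 668 to 937 FPKM in PBS, 983 to 1485 in BAPN, 985 to 1401 in BAPN+Cilengitide and 1060 to 1600 in BAPN+SB273005, with 0, 1 and 3 of 10 passing as higher than PBS. In each inhibitor group the library with the highest Pdgfc had the lowest fibroblast sum (BAPN+Cilengitide 1, 985 FPKM, and BAPN+SB273005 1, 1060 FPKM). In PBS and BAPN it had the highest fibroblast sum (PBS 3, 937 FPKM, and BAPN 1, 1485 FPKM). The part of the fibroblast markers in the Pdgfc result was not tested.

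Pdgfa (ENSMUSG00000025856, chr5:138976014-138997370, minus strand) encodes the PDGF-A chain. It had 17.9, 15.9 and 18.1 FPKM in PBS and 20.4, 20.5, 21.4 and 14.7 in BAPN. BAPN+Cilengitide had 26.9, 18.5 and 19.0, and BAPN+SB273005 26.8, 10.4, 19.4 and 22.5. The BAPN+Cilengitide libraries lay just above the PBS ones, while the other groups overlapped PBS. The log2 differences from PBS were 0.16 ± 0.24, 0.35 ± 0.26 and 0.24 ± 0.24 in BAPN, BAPN+Cilengitide and BAPN+SB273005, with edgeR adjusted p values of 0.884, 0.502 and 0.550.

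Pdgfd (ENSMUSG00000032006, chr9:6168584-6378845, plus strand) encodes the second ligand of PDGFRβ. It had 26.5, 25.0 and 32.5 FPKM in PBS, 34.5, 31.1, 38.4 and 31.8 in BAPN, 28.2, 25.2 and 36.9 in BAPN+Cilengitide, and 28.0, 10.9, 27.9 and 32.1 in BAPN+SB273005. All groups overlapped PBS, and BAPN+SB273005 2, the library with the low smooth muscle sum, was lowest of the 14. The log2 differences were 0.28 ± 0.27, 0.14 ± 0.28 and -0.13 ± 0.26 against PBS, with edgeR adjusted p values of 0.783, 0.838 and 0.789. Without BAPN+SB273005 2 the last became 0.095 ± 0.15 (edgeR adjusted p = 0.714).

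Pdgfra (ENSMUSG00000029231, chr5:75152292-75198215, plus strand), the receptor gene of fibroblasts and other mesenchymal cells, had 8.13, 11.2 and 13.4 FPKM in PBS. It had 14.9, 11.00, 11.2 and 19.6 in BAPN, 12.04, 13.8 and 14.1 in BAPN+Cilengitide, and 13.8, 17.8, 12.4 and 13.0 in BAPN+SB273005. PBS 1 was the lowest library and BAPN 4 the highest, and every BAPN-fed group overlapped PBS. The log2 differences from PBS were 0.37 ± 0.23, 0.32 ± 0.25 and 0.44 ± 0.23, with edgeR adjusted p values of 0.610, 0.525 and 0.235.

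Pdgfrb, the receptor gene of pericytes and smooth muscle cells, had 90.9, 84.7 and 73.8 FPKM in PBS and 99.96, 61.7, 70.8 and 60.8 in BAPN. BAPN+Cilengitide had 118.2, 91.2 and 93.3, and BAPN+SB273005 128.9, 148.6, 74.6 and 77.0. BAPN+Cilengitide lay just above PBS, and BAPN+SB273005 was split, with replicates 1 and 2 above every other library and replicates 3 and 4 within the PBS range. The log2 differences from PBS were -0.18 ± 0.26, 0.32 ± 0.28 and 0.44 ± 0.26, with edgeR adjusted p values of 0.878, 0.581 and 0.294. Pericyte markers (8 measured, 7 tested) summed to 184 to 230 FPKM in PBS, 212 to 244 in BAPN, 188 to 260 in BAPN+Cilengitide and 140 to 352 in BAPN+SB273005. None passed in BAPN, 1 was lower in BAPN+Cilengitide (Kcnj8), and in BAPN+SB273005 1 was higher (Ndufa4l2) and 2 were lower (Kcnj8 and Vtn), all named after their values were seen. Of all 13294 tested genes, 213 passed as lower in BAPN+Cilengitide and 715 in BAPN+SB273005. BAPN+SB273005 1 and 2, the libraries with the highest Pdgfrb, had the highest and the lowest pericyte sum of all libraries (352 and 140 FPKM). BAPN+SB273005 2 also had the lowest smooth muscle sum (1199 FPKM). The part of the pericyte and smooth muscle markers in the Pdgfrb values was not tested.

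Of the 6 members, 0 passed in BAPN against PBS, where 0.233% of the 13294 tested genes did. In BAPN+Cilengitide 2 passed, both higher, against 3.98% of all tested genes higher and 5.58% in either direction. In BAPN+SB273005 2 passed, both higher, against 7.82% higher and 13.2% in either direction. Groups did not overlap in FPKM for 2 members in BAPN (7.02% of tested genes in that direction), 4 in BAPN+Cilengitide (13.5%) and 2 in BAPN+SB273005 (9.15%), all of them higher. This background was not stable, since fits without 1 of the libraries gave 2 to 186 passing genes in place of 31 in BAPN, 109 to 1249 in place of 742 in BAPN+Cilengitide and 498 to 1988 in place of 1754 in BAPN+SB273005. These comparisons share the same 3 PBS libraries and are not independent of each other. When the mean of the 3 BAPN-fed groups was set against PBS, a comparison added after the data were seen, Pdgfb differed by 1.34 ± 0.24 (edgeR adjusted p = 0.00667) and Pdgfc by 1.06 ± 0.26 (edgeR adjusted p = 0.0244), each higher in 11 of 11 libraries and not overlapping with PBS (3.51% of tested genes). In that comparison 9.21% of tested genes passed, 5.58% as higher, and the Pdgfc call was lost without PBS 1, 2 or 3 (adjusted p = 0.0747 to 0.109).

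**Figure D2:**
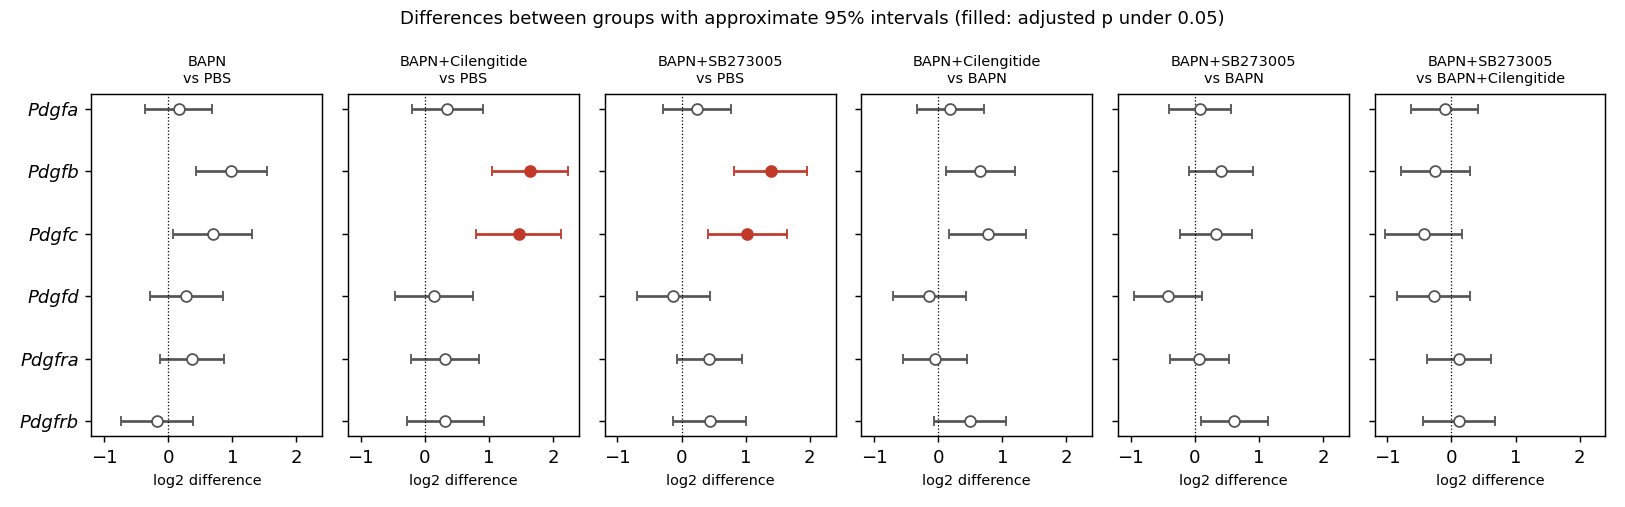
Log2 differences of the 6 genes in the 6 comparisons (points, estimates of the edgeR fit; bars, approximate 95% intervals; filled points, adjusted p under 0.05 over 13294 genes). Filled points appear for Pdgfb and Pdgfc against PBS in both inhibitor groups and in no comparison of an inhibitor with BAPN.

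Neither inhibitor group differed from BAPN alone by the adjusted test in any of the 6 genes. Against BAPN, BAPN+Cilengitide had Pdgfb higher by 0.66 ± 0.25 on the log2 scale (95% interval 0.12 to 1.20, edgeR adjusted p = 0.795), with no overlap between the groups. Pdgfc was higher by 0.77 ± 0.28 (0.17 to 1.37, edgeR adjusted p = 0.795), again with no overlap. No gene of the 13294 passed in that comparison by edgeR (0%), 807 had an unadjusted p under 0.05 and in 2.68% the BAPN+Cilengitide libraries all lay higher. For Pdgfrb the difference was 0.50 ± 0.26 (-0.06 to 1.06, edgeR adjusted p = 0.795).

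BAPN+SB273005 against BAPN gave its largest member difference for Pdgfrb, at 0.62 ± 0.24 (0.09 to 1.14, edgeR adjusted p = 0.252), with overlapping groups. Pdgfd differed by -0.42 ± 0.25 (-0.95 to 0.12) and by -0.18 ± 0.14 without BAPN+SB273005 2, and Pdgfb by 0.41 ± 0.23 (-0.10 to 0.91). In this comparison 0.0301% of tested genes passed. Between the inhibitors, Pdgfc was lower in BAPN+SB273005 by 0.43 on the log2 scale (-0.43 ± 0.28, interval -1.03 to 0.17, edgeR adjusted p = 0.637), and no member passed at an unadjusted p under 0.05. In that comparison 0% of tested genes passed by edgeR, with 1224 at an unadjusted p under 0.05. Both comparisons of BAPN+SB273005 largely followed the library sets, since its replicates 1 to 3 lay in the first set. Only BAPN+SB273005 4 shared a set with BAPN and BAPN+Cilengitide. With the set added to the model, the Pdgfb difference from BAPN changed sign. The intervals hold differences of either sign for most members, so these values do not show that the groups are alike.

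The balance of ligands within a library was followed as a ratio of gene FPKM, which does not depend on how libraries are scaled. The Pdgfa to Pdgfb ratio was 3.30 to 5.48 in PBS, 1.98 to 3.56 in BAPN, 1.62 to 1.85 in BAPN+Cilengitide and 0.776 to 3.36 in BAPN+SB273005. The Pdgfc to Pdgfd ratio was 0.202 to 0.245 in PBS and 0.252 to 0.354, 0.347 to 0.823 and 0.350 to 0.698 in the BAPN-fed groups, in the same order. The Pdgfra to Pdgfrb ratio was 0.0895 to 0.182 in PBS and 0.102 to 0.323 over the BAPN-fed groups. None of the 18 two-sided exact permutation tests of these 3 ratios over the 6 comparisons reached p = 0.05, and the lowest adjusted p was 0.229. Groups of 3 against 3 cannot go below 0.1 and groups of 3 against 4 cannot go below 0.0571. Only BAPN+SB273005 against BAPN, with 4 libraries each and a smallest possible p of 0.0286, could have reached 0.05. For the other comparisons these tests could not decide.

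Transcript forms were described from the transcript table, whose 26 entries for the members outside Pdgfrb all matched GENCODE vM21 in ends, exons and length. The Pdgfa form with the 69-base exon shown above held 33.8, 39.7 and 35.2% of the Pdgfa transcript FPKM in PBS. It held 29.1, 14.8, 22.6 and 27.0% in BAPN, 35.7, 29.3 and 29.8% in BAPN+Cilengitide, and 31.2, 30.4, 32.6 and 32.2% in BAPN+SB273005. All 4 BAPN libraries lay below all 10 others, and BAPN+SB273005 was the most even group. No test was set for shares of transcripts.

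Of the 3 exon forms, those of Pdgfc with the 59-base exon varied most. Their share was 19.7, 41.8 and 16.4% in PBS, 22.2, 39.7, 38.3 and 31.0% in BAPN, 64.0, 66.5 and 47.2% in BAPN+Cilengitide, and 17.3, 70.3, 69.4 and 15.1% in BAPN+SB273005. The 3 BAPN+Cilengitide libraries lay above every PBS and BAPN library, whereas BAPN+SB273005 held both the highest values and the lowest. In transcript FPKM, forms with the exon had 1.93, 3.84 and 1.61 in PBS, 4.10, 5.30, 7.02 and 3.83 in BAPN, 24.6, 16.1 and 9.65 in BAPN+Cilengitide, and 5.02, 9.01, 11.4 and 2.84 in BAPN+SB273005. The remaining form had 7.86, 5.34 and 8.19 in PBS, 14.4, 8.03, 11.3 and 8.54 in BAPN, 13.9, 8.12 and 10.8 in BAPN+Cilengitide, and 24.1, 3.81, 5.02 and 16.0 in BAPN+SB273005. The forms with the exon lay above PBS in all 3 BAPN+Cilengitide libraries, whereas the remaining form overlapped PBS in BAPN and BAPN+Cilengitide and lay on both sides of it in BAPN+SB273005. The forms also differ at their 5′ start and share other sequence, so the split is an estimate. Reads that distinguish the forms were not counted.

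The Pdgfd form without the 215-base exon held 23.2 to 39.1% of the Pdgfd transcript FPKM, with a median of 28.0% over the 14 libraries. For Pdgfra, transcripts ENSMUST00000000476 and ENSMUST00000168162 have the same coding exons and differ in the first exon. The former held 96.2, 95.8 and 49.7% in PBS and 42.7, 0 and 12.4% in BAPN+Cilengitide, and it ranged from 54.8 to 97.0% in BAPN and from 27.7 to 94.6% in BAPN+SB273005. Libraries of 1 group thus differed widely in these estimated shares, while the gene value stayed between 8.13 and 19.6 FPKM. Reads from the shared coding exons cannot tell these forms apart, so this split is an estimate too. A change in the use of the first exon was not tested.

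**Figure D3:**
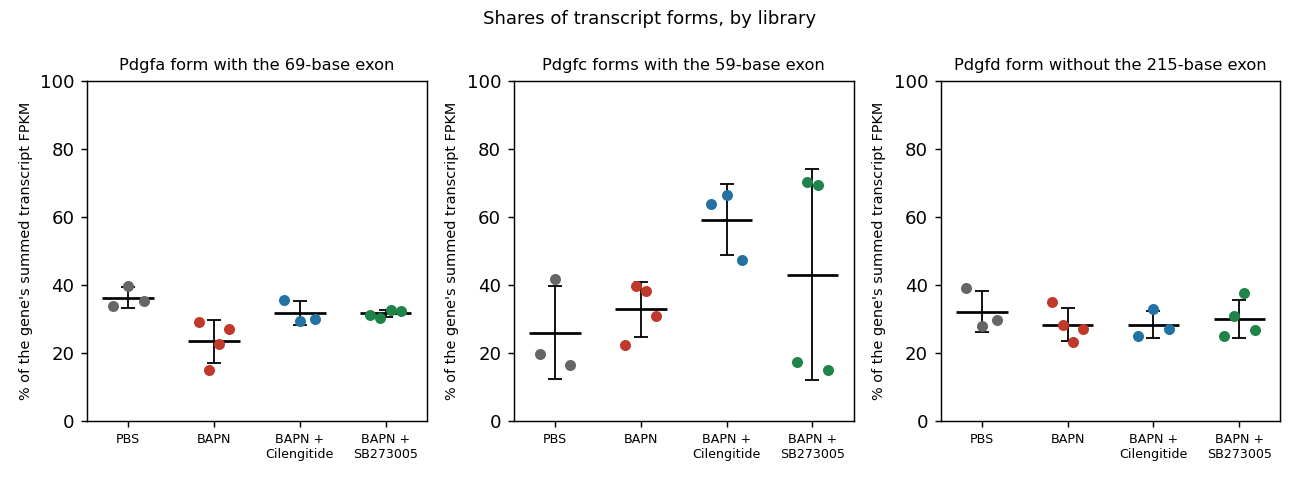
Share of each gene's summed transcript FPKM held by the Pdgfa form with the 69-base exon, the Pdgfc forms with the 59-base exon and the Pdgfd form without the 215-base exon (points, libraries; bars, mean ± SD). Pdgfa shares in BAPN (14.8 to 29.1%) lie below the other groups, and Pdgfc shares in BAPN+SB273005 split into a low and a high pair.

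Other genes of the pathway were read from 5 lists. Genes that process PDGF ligands or bind them beside the receptors (10 of 10 tested) had 0, 1 and 4 members higher than PBS in BAPN, BAPN+Cilengitide and BAPN+SB273005, with none lower. The background for this and the following list counts is the 0.233% of all tested genes that passed in BAPN, and the 3.98% and 7.82% that passed as higher in the inhibitor groups. Lrp1, an endocytic receptor that associates with PDGFRβ, was higher in both inhibitor groups, with log2 differences of 0.57 ± 0.15 and 0.49 ± 0.14 (edgeR adjusted p = 0.0487 and 0.0426). In BAPN+SB273005 the co-receptor genes Nrp1 (2.77 ± 0.503 FPKM in PBS, n = 3, and 5.71 ± 0.912, n = 4) and Nrp2 (1.15 ± 0.152 and 2.89 ± 1.14) and the proprotein convertase gene Pcsk5 (2.75 ± 0.431 and 5.48 ± 2.204) also passed, with log2 differences of 1.09, 1.39 and 1.03. The list's median log2 difference was 0.37, 0.66 and 0.47 against 0.0016, -0.018 and 0.021 over all tested genes.

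The receptor signalling list (34 of 34 tested) had members on both sides of 0, with medians of -0.026, 9.2e-05 and 0.026. In it 0, 1 and 3 genes passed, all higher, which is near the background share. Pik3r1, a regulatory subunit of the phosphoinositide 3-kinase that docks on the receptors, was higher by 1.08 ± 0.21 in BAPN+Cilengitide and 1.02 ± 0.19 in BAPN+SB273005 (edgeR adjusted p = 0.0133 and 0.00728). Nras, a small GTPase, and Fyn, a Src-family kinase, were higher by 0.62 ± 0.13 and 0.61 ± 0.14 in BAPN+SB273005 (edgeR adjusted p = 0.0130 and 0.0176).

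Genes that restrain the receptors or their downstream kinases (13 of 13 tested) had 0, 2 and 5 members higher, and 1 lower in BAPN+SB273005. Spry1 and Spry4 encode Sprouty proteins, which dampen signalling from receptor tyrosine kinases. Spry1 had 6.89 ± 1.44 FPKM in PBS (n = 3), 12.3 ± 5.71 in BAPN (n = 4), 17.2 ± 1.15 in BAPN+Cilengitide (n = 3) and 24.9 ± 3.42 in BAPN+SB273005 (n = 4). It was higher than PBS by 1.35 ± 0.28 and 1.90 ± 0.27 in the inhibitor groups (edgeR adjusted p = 0.0176 and 0.00243), and Spry4 by 1.34 ± 0.25 and 1.46 ± 0.24 (0.0129 and 0.00427). Dusp6, a phosphatase of ERK, and Cblb, a ubiquitin ligase, were higher in BAPN+SB273005 by 1.00 ± 0.23 and 0.67 ± 0.18 (edgeR adjusted p = 0.0175 and 0.0311). The member that was lower, Acp1, a phosphatase that acts on PDGF receptors, was named after its values were seen and differed by -0.40 ± 0.12 (edgeR adjusted p = 0.0423). The list's median was 0.29, 0.41 and 0.54.

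Early response genes known to be induced by PDGF in cultured cells (17 of 19 tested) had 0, 3 and 3 members higher and none lower, with medians of 0.42, 0.057 and 0.38. The log2 difference from PBS was above 0 for 9 of the 17 in each inhibitor group. Egr2, a transcription factor, Ccnd1, a cyclin of the cell cycle, and Ccl7, a monocyte chemokine, passed in both inhibitor groups. Fosb, Atf3, Fos and Jun, named after their values were seen, lay below PBS in both without passing. Their log2 differences were -1.19, -1.14, -0.77 and -0.58 in BAPN+Cilengitide and -1.07, -0.52, -0.39 and -0.25 in BAPN+SB273005. Egr2 was higher by 1.24 ± 0.28 and 1.37 ± 0.27 (edgeR adjusted p = 0.0242 and 0.00776) and Ccnd1 by 1.70 ± 0.40 and 1.66 ± 0.38 (0.0290 and 0.0168). Ccl7 had 0.795 ± 0.196 FPKM in PBS (n = 3), 8.60 ± 7.70 in BAPN (n = 4), 5.38 ± 1.08 in BAPN+Cilengitide (n = 3) and 4.88 ± 4.02 in BAPN+SB273005 (n = 4), and its BAPN difference of 3.43 ± 0.74 did not pass (edgeR adjusted p = 0.0591).

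Ligands and receptors of the neighbouring VEGF, CSF1 and KIT branches (14 of 15 tested) had 0, 4 and 7 members higher and none lower, with medians of 0.42, 0.52 and 0.91. Vegfd, a lymphatic growth factor, had 5.76 ± 0.252 FPKM in PBS (n = 3), 19.4 ± 12.8 in BAPN (n = 4), 24.6 ± 3.13 in BAPN+Cilengitide (n = 3) and 21.5 ± 3.23 in BAPN+SB273005 (n = 4), with log2 differences of 1.74 ± 0.35, 2.14 ± 0.37 and 1.95 ± 0.35 in that order (edgeR adjusted p = 0.0537, 0.00871 and 0.00584). Pgf, placental growth factor, was higher by 1.77 ± 0.28 and 1.36 ± 0.27 (edgeR adjusted p = 0.00624 and 0.00814), and in BAPN, where it did not pass, the difference was 1.36 ± 0.27 (0.0528). Csf1r, the macrophage colony-stimulating factor receptor and also 1 of the macrophage markers above, was higher by 1.85 ± 0.33 and 1.98 ± 0.32, and its ligand Csf1 by 0.99 ± 0.22 and 0.83 ± 0.21. Flt1, a VEGF receptor, passed in BAPN+SB273005 (0.92 ± 0.20, edgeR adjusted p = 0.0140). None of the 5 lists had a member passing in BAPN against PBS or in the 3 comparisons among BAPN-fed groups. Several calls were lost when 1 library was left out, among them those of Lrp1, which passed in 2 and 1 of 14 such fits, and Ccl7, which passed in 5 and 10.

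**Figure D4:**
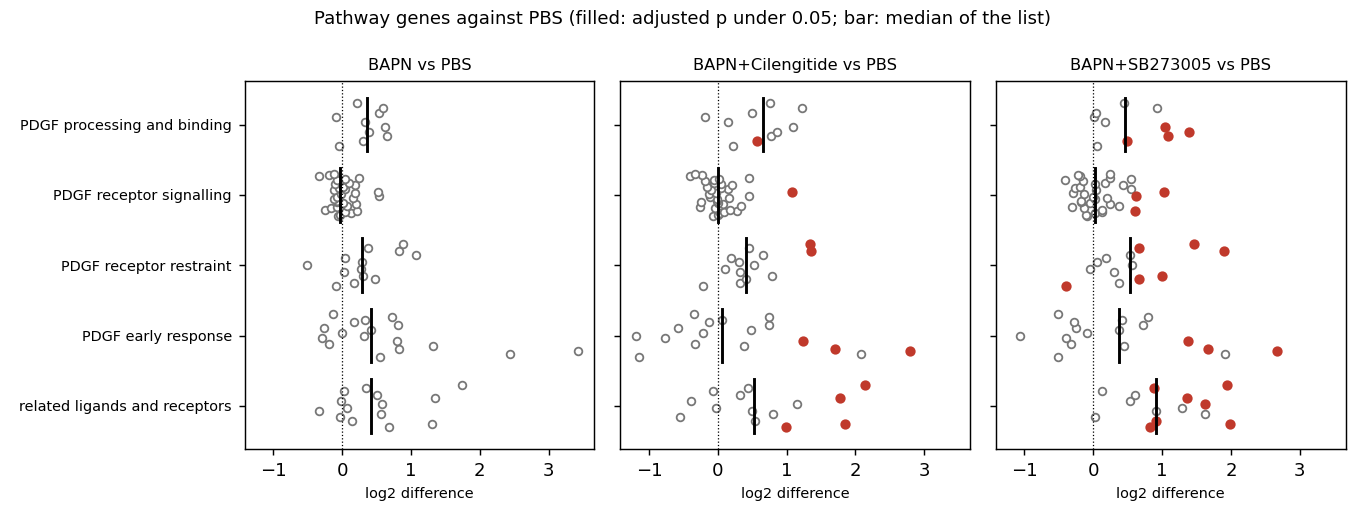
Log2 differences from PBS of the tested genes of the 5 pathway lists in each BAPN-fed group (points, genes; filled, adjusted p under 0.05; black bars, list medians). No point is filled in BAPN, and the 34 signalling genes centre on 0 in all 3 panels.

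The tested genes whose log2(FPKM + 1) followed each member most closely over the 14 libraries were named as a description. The libraries share their groups and their sets, and these correlations carry no test. For Pdgfb they were Ccl17 (Pearson r = 0.94), a chemokine of dendritic cells and macrophages, P2rx7 (0.92), an ATP-gated channel of myeloid cells, and Ms4a6d (0.92), a macrophage membrane protein. For Pdgfc they were Fn1 (0.97), fibronectin, Bgn (0.96), the proteoglycan biglycan, and Rarres1 (0.96). Pdgfa was followed most closely by Cnn2 (0.97), a calponin, Map3k10 (0.94) and Fgfr2 (0.93), and Pdgfd by Pdlim5 (0.97), Tmem38b (0.96) and Hdac9 (0.95). Pdgfra went with Bicc1 (0.89), Sash1 (0.85) and Dapk1 (0.83), and Pdgfrb with Casp6 (0.93), Coro1b (0.93) and Sox4 (0.91). After group means were taken out, the values for Pdgfb fell to 0.80, 0.82 and 0.74, whereas those of Fn1, Bgn and Rarres1 with Pdgfc were 0.95, 0.93 and 0.97.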

How the data were processed

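The authors deposited a table of genes and a table of transcripts, each with estimated counts and FPKM (fragments per kilobase, scaled to library size) for every library. Per the submitters' processing notes, HISAT2 2.2.1, StringTie 2.1.6 and the mm10 build were used. Annotation release, strand and read filters were not given in the sources used here, and reads of overlapping antisense genes could not be told apart. In 99.995% of cases the deposited estimated count of a gene equals that of its transcripts added up, and these are estimates, so a model of counting error is an approximation.

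The 13294 genes that reached 1 FPKM in at least 3 libraries, all 6 members among them, entered the quasi-likelihood test of edgeR 4.0.16 (R 4.3.3), with TMM scaling and a shared fit of the 14 libraries. P-values were adjusted over all of them by Benjamini-Hochberg, with a threshold of 0.05. SEs and 95% intervals were worked back from the F statistic and are approximate. Replicates differed by more than sampling noise, so each library counted as 1 sample. Ratios were tested with exact permutation tests (scipy 1.17.1). Alternatives used DESeq2 1.42.0, limma 3.58.1 on log2(FPKM + 1) or log2(FPKM + 0.1) values, other filters, a replicate block, the library set and leaving out each library.

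Named were the 6 members, of each pathway list up to 4 passing genes of smallest p in each comparison with PBS and up to 2 in each comparison of an inhibitor, and for each member the 3 most correlated tested genes, gene models left out. The members and lists were chosen with earlier results of these data known.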

Additional observations from a re-analysis of the deposited data

Results flagged for a closer look

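In each group of 4 libraries, the lowest and highest values of the 6 genes, 3 ratios and 3 exon form shares were checked with Dixon's test, 24 groups in all, of which 2 stood out. Chance flags about 1 in 20 such groups. Pdgfa in BAPN 4, at 14.7 FPKM, lay far below the other BAPN libraries, which had 20.4 to 21.4. The log2 ratio of Pdgfa to Pdgfb in BAPN 3, at 1.83, lay far above the others of its group, which started at 0.98, and that library had the lowest Pdgfb of the BAPN group at 6.00 FPKM.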

How the results depend on the processing

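Pdgfb passed in 14 of 14 fits that left out 1 library in both BAPN+Cilengitide (1.40 to 1.81) and BAPN+SB273005 (1.20 to 1.56). The number of members that passed fell from 2 to between 1 and 2 when 1 library was left out, for each inhibitor group and for all BAPN-fed groups against PBS. It fell to 0 in BAPN+Cilengitide with the library set as a term, and to 1 in BAPN+SB273005 with limma on log2(FPKM + 1), log2(FPKM + 0.1) or rescaled FPKM, with no filter, with only the 2 groups compared and within 1 library set. In BAPN it went from 0 to 1 (Pdgfb) with DESeq2 and with the replicate block. The labels do not say that numbers mark shared mice or batches, and the deviations of same-numbered samples correlated over 0.1 in 12 of 19 pairs, not in every pair (-0.16 to 0.34), with 8 of 14 libraries closest to their own number, so the numbers were not taken to pair the samples. With the block the genes passing went from 31 to 141 in BAPN, 742 to 962 in BAPN+Cilengitide and 1754 to 1866 in BAPN+SB273005 against PBS, and Pdgfb in BAPN differed by 1.10 ± 0.18 (edgeR adjusted p = 0.0288, over all alternatives 0.0112 to 0.446). The remaining sign changes concern differences that did not pass. Adding the library set gave, in BAPN vs PBS, -0.11 for Pdgfa, -0.26 for Pdgfd and 0.44 for Pdgfrb, BAPN+Cilengitide vs PBS -0.40 for Pdgfd, BAPN+SB273005 vs BAPN -0.23 for Pdgfb and -0.070 for Pdgfra, and BAPN+SB273005 vs BAPN+Cilengitide 0.088 for Pdgfa, 0.11 for Pdgfd, -0.023 for Pdgfra and -0.37 for Pdgfrb. Within 1 set the last 2 comparisons gave -0.23 and -0.074, then 0.078, 0.10, -0.032 and -0.38 for the same genes. For Pdgfra in BAPN+Cilengitide vs BAPN, rescaled FPKM gave 0.068 and the replicate block 0.023. In BAPN+SB273005 vs BAPN, limma gave -0.023, -0.028 and -0.12 (rescaled) for Pdgfa and -0.076 (rescaled) for Pdgfra. Rescaled FPKM in BAPN+SB273005 vs BAPN+Cilengitide gave -0.14 for Pdgfra and -0.20 for Pdgfrb. Leaving out 1 library gave -0.022 to 0.27 for Pdgfd in BAPN+Cilengitide vs PBS, -0.29 to 0.095 for Pdgfd in BAPN+SB273005 vs PBS, and -0.15 to 0.14 for Pdgfra in BAPN+Cilengitide vs BAPN. It gave -0.096 to 0.28 for Pdgfa and -0.083 to 0.25 for Pdgfra in BAPN+SB273005 vs BAPN. In BAPN+SB273005 vs BAPN+Cilengitide it gave -0.29 to 0.086 for Pdgfa, -0.041 to 0.18 for Pdgfra and -0.12 to 0.26 for Pdgfrb. The cause of these changes was not tested.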
